A study of Mus musculus with 2 samples.

Results

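The clustered histone genes were taken as the protein-coding genes of GENCODE release M21 whose symbols start with Hist1h, Hist2h, Hist3h or Hist4h. This rule uses names and gene types and no measured value, and it found 67 genes among 22028 protein-coding genes and 55536 genes in all. They were measured in polyadenylated RNA of activated regulatory T cells, the Foxp3-expressing T cells that restrain immune responses, from a male mouse aged 4 months of the strain Foxp3CreERT2 x Rosa26YFP. In such a strain the Foxp3 locus drives a tamoxifen-dependent Cre and the Rosa26 locus holds a yellow fluorescent reporter, and the labels trace the cells to haematopoietic cells of bone marrow. The 2 libraries are technical replicates 1 and 2 of biological replicate 1, called library 1 and library 2 here, with no second condition. The labels do not say how the cells were activated and sorted, or whether animals were pooled. Every SD below is the spread between 2 technical libraries, and the p-values compare libraries, not animals.

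Histones package DNA: H2A, H2B, H3 and H4 form the core of the nucleosome and H1 binds the linker between nucleosomes. The clustered genes supply them while DNA is replicated, and their mRNAs are the known exception among mRNAs in ending after a short stem-loop in place of a poly(A) tail. The stem-loop binding protein Slbp holds the stem-loop, and cleavage just past it needs U7 small nuclear RNA and the endonuclease Cpsf3. A library made from polyadenylated RNA therefore sees only those transcripts of these genes that carry a tail, or that passed the selection without one, and these cases cannot be told apart in the files.

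The 67 genes held 54 members in the Hist1 cluster, 10 in Hist2, 2 in Hist3 and 1 at the Hist4 locus. On mm10, Hist1 spans chr13:21715763-23934851 in a pair of stretches, Hist2 spans chr3:96219865-96270132, Hist3 spans chr11:58948920-58956830 and Hist4h4 lies at chr6:136801553-136804415. By type they were 6 genes of H1, 18 of H2A, 18 of H2B, 12 of H3 and 13 of H4. In the annotation 62 of the 67 had only transcripts of 1 exon, and 5 (Hist1h2bc, Hist1h2be, Hist1h2bp, Hist1h2bq and Hist1h2br) had a spliced one.

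The stem-loop is shown first because it is the feature that sets these mRNAs apart. It was searched by its consensus, on the transcript's own strand after the stop codon, and found in 46 of the 67 members. The match began 22 to 59 bases past the stop codon, with a median of 32. Counting only models with 100 or more annotated bases after the stop codon, 26 of 31 members (83.9%) held it within the first 100 of those bases, against 2 of 19889 other protein-coding genes (0.0101%). Those 2 were H2afx and H2bfm, which are themselves histone genes. Sites of 8 members are given 5′ to 3′ with the stem-loop in capitals, from the GENCODE M21 transcripts.
Hist1h2ap, chr13:21833026-21833049, minus strand: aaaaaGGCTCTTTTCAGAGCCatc
Hist1h2ae, chr13:23570665-23570688, minus strand: acaaaGGCTCTTTTCAGAGCCatt
Hist1h1e, chr13:23621779-23621802, minus strand: ccaaaGGCTCTTTTCAGAGCCacc
Hist1h2bk, chr13:22036295-22036318, plus strand: ccaaaGGCTCTTTTAAGAGCCact
Hist1h3g, chr13:23535884-23535907, plus strand: ttaaaGGCTCTTCTTAGAGCCacc
Hist1h4d, chr13:23581945-23581968, plus strand: ccaaaGGCCCTTTTCAGGGCCact
Hist1h4i, chr13:22040963-22040986, minus strand: ttaaaGGCCCTTTTTAGGGCCacc
Hist1h4b, chr13:23757361-23757384, plus strand: caaaaGGTCCTTTTCAGGACCact
The stem differed by histone type. All 34 matches in H1, H2A, H2B and H3 genes had the stem GGCTCT, and none of the 12 in H4 genes did. In H4 genes 10 had GGCCCT and 2 (Hist1h4b and Hist1h4j) had GGTCCT.

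The annotated ends fell into 3 forms, with a boundary at 100 bases past the stem-loop that was set after the lengths were seen. Where several coding models exist, the one that reaches furthest past a stem-loop was used, so Hist1h2bp was placed by its shorter model, since its longer one holds no match. In 23 members this model ended within 100 bases past the stem-loop, in 23 it went further, and in 21 no coding model held a stem-loop. In Hist1h2ap the model stopped 3 bases past the stem-loop, the place of the histone-type end. In Hist1h1c it went on for 840 bases, in Hist1h4d for 770, in Hist1h1e for 1153, in Hist3h2a for 1643 and in Hist1h1d for 4884. Of the 21 without the motif, 13 had no annotated base after the stop codon, so in those the window that would hold it is missing. Hist1h2af and Hist1h2ah, with 1 and 2 such bases, were also too short to hold the 16-base motif. Hist2h3b and Hist1h1a, with 37 and 48, covered only part of the range in which it was found. In these the motif may lie past the annotated end. A poly(A) signal, AATAAA or ATTAAA, was searched on the transcript's strand in its last 50 bases. It was present in 16 of the 31 members with 100 or more bases after the stop codon (51.6%), against 81.9% of 19889 other protein-coding genes.

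The depth was 15076048 estimated gene reads in library 1 and 14635787 in library 2, of which the clustered histone genes held 3776 and 3349. All 7 regulatory T cell markers were at 1 TPM or more in both libraries (TPM is a level per transcript length that sums to the same total in each library). The highest were Cd3e at 598 and 698, Tnfrsf18 at 582 and 577, and Ikzf2 at 471 and 466 TPM in library 1 and library 2, and the lowest was Foxp3 at 23.8 and 20.9 TPM. Of 17 markers of other blood cells 4 were at 1 TPM or more in both, namely Cd8b1 at 9.94 and 14.8, Hbb-bs at 6.27 and 4.74, Hba-a1 at 3.5 and 1.56, and Cd79a at 1.26 and 1.70 TPM. The 17 together came to 25.3 and 28.3 TPM, and those at 0 in both libraries included Ncr1, S100a9 and Ppbp. Their part in the histone levels was not tested.

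A few clustered histone genes, most of them H2A, held most of the members' signal. The 67 members summed to 553.8 TPM in library 1 and 526.0 TPM in library 2, a mean of 539.9 ± 19.6 TPM (SD, n = 2). Of the members 33 (49.3%) were at 1 TPM or more in both libraries, against 46.2% of all protein-coding genes, so the share was near the background. A further 13 reached 1 TPM in 1 library only and 21 in neither. The median member stood at 1.70 TPM and the median protein-coding gene at 0.592 TPM. Only 7 members reached 10 TPM in both libraries and 2 reached 100 TPM, the H2A genes Hist1h2ap and Hist1h2ah. These 2 held 53.0% of the members' TPM in library 1 and 49.6% in library 2.

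**Figure D1:**
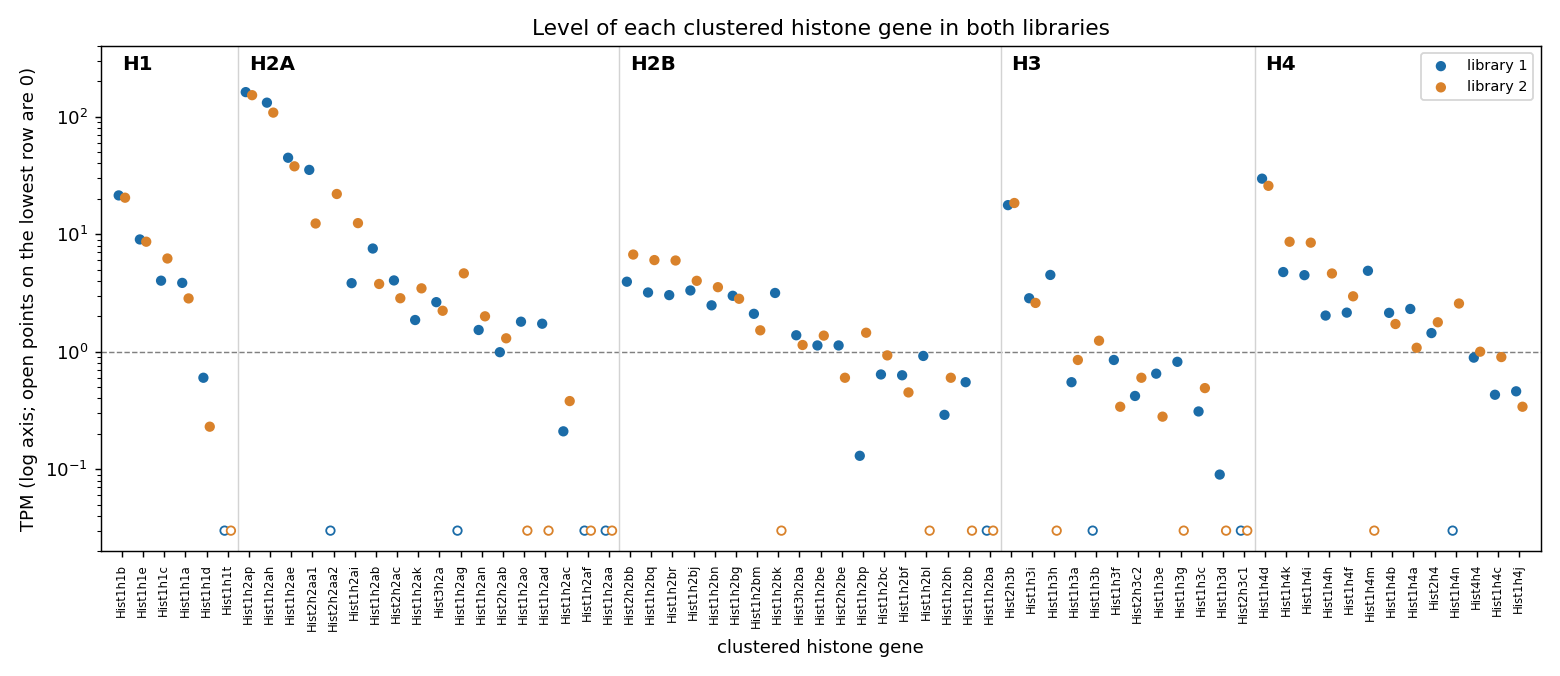
TPM on a log axis of each of the 67 clustered histone genes in library 1 (blue) and library 2 (orange), grouped by histone type and ordered by mean within it. Open points on the lowest row are values of 0 and the dashed line is 1 TPM. The H2A genes Hist1h2ap and Hist1h2ah stand highest, and of 12 H3 genes only Hist2h3b and Hist1h3i lie above the line in both libraries.

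By type, H2A genes held most of the signal, with 399.6 and 365.9 TPM, or 72.2% and 69.6% of the members' sum. H4 genes followed at 55.7 and 59.9 TPM (10.1% and 11.4%), then H1 at 38.9 and 38.4 TPM (7.02% and 7.29%). H2B genes came to 31.0 and 37.1 TPM (5.60% and 7.06%) and H3 genes to 28.7 and 24.8 TPM (5.18% and 4.72%). H2A and H2B enter the nucleosome in equal number, and each has 18 genes here, yet the summed TPM of H2A was above that of H2B in both libraries. The shares of H1 and H2B, 7.15% ± 0.192 and 6.33% ± 1.03 (SD, n = 2), differed by less than the spread of H2B, whereas H2A lay far outside the spread of every other type.

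By cluster, Hist1 held 484.0 and 455.1 TPM, or 87.4% and 86.5% of the sum. Its stretch at chr13:21715763-22043676, with 23 members, gave 364.1 and 348.8 TPM, and its stretch at chr13:23531050-23934851, with 31 members, gave 119.9 and 106.3 TPM. Hist2 held 64.9 and 66.6 TPM from 10 members, Hist3 4.02 and 3.37 TPM from 2, and Hist4h4 0.89 and 1.00 TPM. The median member was at 1.73 TPM in Hist1 and 2.53 TPM in Hist2, so the larger sum of Hist1 came from more genes and from a few high ones. Within Hist2 most of the signal was H2A, at 40.3 and 38.5 TPM, and H3, at 18.1 and 19.0 TPM.

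Linker histone genes were the members whose reads could be placed best. Hist1h1b, which encodes the linker subtype H1.5, held 21.4 and 20.4 TPM. Its 184 and 166 estimated reads were whole numbers, and all of its 694 windows of 50 bases, the read length, occur in no other annotated gene on either strand. Hist1h1e, encoding H1.4, stood at 9.02 and 8.63 TPM, and Hist1h1c, encoding H1.2, at 4.02 and 6.21 TPM. Hist1h1a, encoding H1.1, stood at 3.85 and 2.84 TPM. Hist1h1d, encoding H1.3, was under 1 TPM in both libraries, at 0.60 and 0.23, over a model of 7425 bases. Hist1h1t, the testis form, had no read in either library. Library 1 and library 2 thus gave the same 2 leading H1 genes. Hist1h1b, with a model of 743 bases, led in TPM. Hist1h1e, with a model of 1930 bases, led in estimated reads, at 210 and 190. The model of Hist1h1e shares 496 exonic bases with Hist1h2be on the same strand, so reads there could belong to either.

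Among H2A genes, Hist1h2ap led with 162 and 152 TPM (869 and 772 estimated reads), above 96.7% and 96.3% of protein-coding genes. Hist1h2ah followed with 132 and 108 TPM, and Hist1h2ae with 44.7 and 37.8 TPM. These 3 genes differ little in coding sequence. The separate values of Hist1h2ap and Hist1h2ah rest on few bases, whereas Hist1h2ae also has sequence of its own outside the coding part. Hist1h2ap had 30 of 433 windows (6.9%) in no other gene, all across the start of its coding sequence. Hist1h2ah had 28 of 356 (7.9%), and Hist1h2ae had 372 of 655 (56.8%). The coding sequences of Hist1h2ah and Hist1h2ap differ at 4 of 387 compared bases, those of Hist1h2ae and Hist1h2ap at 6 of 393, and those of Hist1h2ao and Hist1h2ap at none. Over 387 coding bases, 5 H2A genes differ at 40 positions, 34 of them the third base of a codon. The first 60 coding bases hold 13 of these positions and are printed with them in capitals.
Hist1h2ap, chr13:21833416-21833475, minus strand: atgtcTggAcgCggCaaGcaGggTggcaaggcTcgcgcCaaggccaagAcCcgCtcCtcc
Hist1h2ah, chr13:22035493-22035552, minus strand: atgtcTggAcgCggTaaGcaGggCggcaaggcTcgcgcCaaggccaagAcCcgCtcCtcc
Hist1h2ae, chr13:23571049-23571108, minus strand: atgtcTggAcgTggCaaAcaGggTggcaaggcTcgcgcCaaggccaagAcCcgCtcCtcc
Hist1h2ab, chr13:23751133-23751192, plus strand: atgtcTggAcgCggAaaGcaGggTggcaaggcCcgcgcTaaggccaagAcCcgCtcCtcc
Hist2h2aa1, chr3:96245581-96245640, plus strand: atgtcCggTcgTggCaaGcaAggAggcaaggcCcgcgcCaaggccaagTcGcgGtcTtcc
Over the coding sequence Hist2h2aa1 and Hist1h2ap differ at 34 of 393 bases, while the 4 Hist1 genes differ from each other at 4 to 10.

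Hist2h2aa1 and Hist2h2aa2 are neighbouring copies on opposite strands, and all 479 windows of Hist2h2aa2 occur in Hist2h2aa1. Hist2h2aa1 stood at 35.3 and 12.3 TPM and Hist2h2aa2 at 0 and 21.98 TPM. Their sum was 35.3 and 34.3 TPM, so the copies differed in opposite directions while the SD of the sum was 0.665 TPM (n = 2). No value for either copy alone can be read from these reads.

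The other H2A genes at 1 TPM or more in both libraries were lower. Hist1h2ai stood at 3.83 and 12.4 TPM, Hist1h2ab at 7.55 and 3.77 TPM, and Hist2h2ac at 4.04 and 2.85 TPM. Hist3h2a, of the Hist3 cluster, stood at 2.64 and 2.23 TPM, Hist1h2ak at 1.86 and 3.46 TPM and Hist1h2an at 1.53 and 2.00 TPM. Of these 6, only Hist3h2a had over 50% of its windows in no other gene (68.5%). The testis gene Hist1h2aa had no read in either library.

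The rule left out 2 H2A pseudogenes of the Hist1 cluster that carry much of the same sequence. Hist1h2aj, annotated as an unprocessed pseudogene, was given 461 and 277 estimated reads, or 123 and 78.0 TPM. Hist1h2al, annotated as a processed pseudogene, was given 197 and 171 reads, or 54.8 and 50.4 TPM. Together they held 177.5 and 128.4 TPM beside the 399.6 and 365.9 TPM of the 18 protein-coding H2A genes. Gm44346, annotated as a miRNA gene on the strand opposite to Hist1h2an, was given 158 and 216 reads, or 138 and 200.3 TPM, and its 92 shared windows run antisense to members. How strand was handled is not stated in the labels or file headers, so reads of Gm44346 and of the H2A members cannot be told apart.

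H2B genes were spread over many members with no high one. The highest were Hist2h2bb at 3.94 and 6.71 TPM, Hist1h2bq at 3.19 and 6.02 TPM and Hist1h2br at 3.03 and 5.97 TPM. None of the 332 windows of Hist2h2bb was unique, and the antisense gene Gm20628 overlaps all 381 of its bases. Hist1h2bq and Hist1h2br share 1961 windows, and their transcripts Hist1h2bq-201 and Hist1h2br-202 were given the same 12.5 reads in library 1 and the same 23.2 in library 2. Of the rest, Hist1h2bj stood at 3.32 and 4.01 TPM, Hist1h2bn at 2.48 and 3.54 TPM and Hist1h2bg at 2.99 and 2.82 TPM. Hist1h2bm stood at 2.10 and 1.52 TPM, Hist3h2ba at 1.38 and 1.14 TPM and Hist1h2be at 1.13 and 1.37 TPM. Hist1h2be, one of the spliced members, was divided between transcripts differently in each library: Hist1h2be-202 took 47.3% of its TPM in library 1 and Hist1h2be-201 took 51.2% in library 2, each with 0 in the other. Hist2h2be, all of whose 2571 windows are found in no other gene, stood at 1.13 and 0.60 TPM, from 36 and 18 whole reads. The testis gene Hist1h2ba had no read in either library.

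H3 had the fewest detected members. Only 2 of 12 were at 1 TPM or more in both libraries, Hist2h3b at 17.7 and 18.4 TPM and Hist1h3i at 2.85 and 2.60 TPM. Hist2h3b thus carried most of the H3 signal, although none of its 439 windows was unique, since all occur in another H3 gene or in the antisense gene Gm20628. Hist1h3h stood at 4.50 TPM in library 1 and 0 in library 2. The 9 H3 genes of the Hist1 cluster summed to 10.6 and 5.80 TPM (63.9 and 34.9 reads), and the 3 of Hist2 to 18.1 and 19.0 TPM. Hist2h3c1 had an estimated count of 0 in both libraries, and it too has no window of its own.

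H4 genes encode the least variable of the histones, and 8 of 13 were at 1 TPM or more in both libraries. Hist1h4d led with 29.7 and 25.8 TPM (401 and 329 reads), and 89.8% of its windows occur in no other gene, most of them in the 822 annotated bases after its stop codon. Hist1h4k followed at 4.76 and 8.62 TPM and Hist1h4i at 4.48 and 8.47 TPM. Lower still, Hist1h4h stood at 2.03 and 4.63 TPM, Hist1h4f at 2.15 and 2.96 TPM and Hist1h4b at 2.14 and 1.72 TPM. Hist1h4a stood at 2.31 and 1.08 TPM and Hist2h4 at 1.44 and 1.78 TPM. Hist4h4 stood just under the limit in library 1, at 0.89 and 1.00 TPM, from 31 and 33 whole reads. Hist1h4m was at 4.88 and 0 TPM and its copy Hist1h4n at 0 and 2.57 TPM, and 317 windows are common to both.

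The order of these levels was mostly not resolved. The deposited tables give a credibility interval around the posterior mean TPM, an average over ways of dividing the reads, and not around the TPM itself. The TPM lay above the upper bound in 3 members in library 1 and 2 in library 2, and below the lower bound in 1 in each. Posterior means were 142 and 131 TPM for Hist1h2ap, and 97.0 and 86.0 TPM for Hist1h2ah, lower than their TPM above. Among the 33 members at 1 TPM or more in both libraries there are 32 neighbouring pairs in the order of mean TPM. In 29 of these the intervals overlapped in both libraries, and in 3 they were apart in both. Those 3 steps lay between Hist1h2ah and Hist1h2ae, between Hist1h2ae and Hist1h4d, and between Hist2h3b and Hist1h1e. For Hist1h1e the interval was 6.91 to 9.18 TPM in library 1, whereas for Hist1h2ai it was 0 to 26.5 TPM.

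The 34 members below 1 TPM in 1 or both libraries included 5 with an estimated count of 0 in both (Hist1h1t, Hist1h2aa, Hist1h2ba, Hist1h2af and Hist2h3c1). For Hist1h1t, all of whose windows are its own, 3 reads would have stood at 0.280 TPM in library 1, a limit that covers counting error only. For Hist1h2af, with 6.0% of windows to itself, and Hist2h3c1, with none, a 0 rests on how shared reads were divided. Hist1h2af had a posterior mean of 3.16 TPM and an upper bound of 7.76 TPM in library 1, and 2 counts there in the whole-number table. Another 13 were at 0 in 1 library alone, 4 in library 1 and 9 in library 2.

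Counts that are not whole numbers were the rule among these genes. An estimated count that is more than 0.01 away from a whole number shows that reads were divided among genes or transcripts. In 58 of 67 members this was so in 1 or both libraries. Of the 48 members with 1 read or more in both libraries, 44 had such counts, against 40.1% of the 13681 protein-coding genes with as many reads. Only Hist1h1a, Hist1h1b, Hist2h2be and Hist4h4 had whole counts with reads in both libraries. Of these, Hist1h1a, Hist1h1b and Hist2h2be had every window to themselves and Hist4h4 91.5% of them. By type, the median share of windows found in no other gene was 98.8% in H1, 60.5% in H4, 53.1% in H2B, 38.0% in H3 and 27.0% in H2A.

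The 12 members with under 10% of windows to themselves, Hist1h2ap and Hist1h2ah among them, held 363.6 and 338.6 TPM, or 65.7% and 64.4% of the members' sum. The 8 members with 90% or more held 33.3 and 33.1 TPM. These bands were set after the shares were seen. Most of the signal thus lay in genes whose reads fit several copies.

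A separate deposited table of whole-number counts, made with GENCODE release M4, gave far fewer counts to the genes with copies. It holds 3478224 and 3475360 counts and lists 64 of the 67 members. In the 11 listed members with under 10% of windows to themselves, 1843 and 1593 estimated reads stood against 4 and 5 whole counts. Members with 10 to 50% had 18.5% and 14.7% as many whole counts as estimated reads, those with 50 to 90% had 35.1% and 36.1%, and those with 90% or more had 61.7% and 60.3%. For all genes with 100 to 1000 estimated reads the median was 44.1% in library 1 and 44.2% in library 2. Hist1h2ap, Hist1h2ah and Hist2h2aa1 were at 0 in that table in both libraries. Hist1h1b had 148 and 138, Hist1h4d 163 and 147, Hist1h1e 128 and 102, and Hist1h2ae 76 and 82 whole counts. By type, H1 led that table with 47.1% of the members' counts, H4 had 29.1% and H2A 19.1%.

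**Figure D2:**
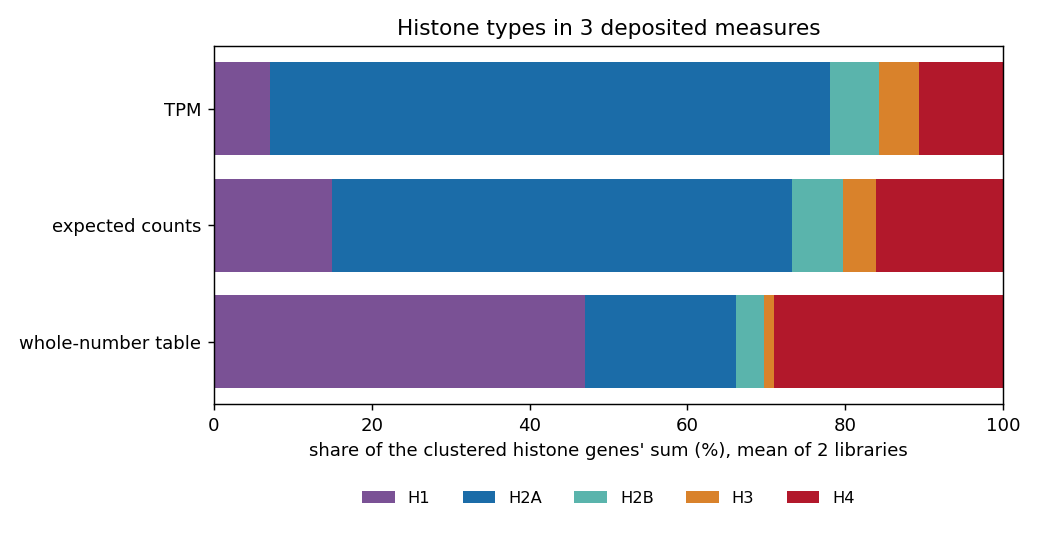
Share of each histone type in the sum over clustered histone genes, as the mean of 2 libraries, for deposited TPM, expected counts and counts of the whole-number table. H2A holds 70.9%, 58.3% and 19.1%, and H1 holds 7.15%, 14.98% and 47.1%.

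The libraries were compared gene by gene with an exact two-sided binomial test of rounded estimated reads, taking as the null the 49.3% of gene reads that came from library 2, with Benjamini-Hochberg adjustment over the 17271 genes with 10 reads or more. This test sets 2 libraries of 1 sample side by side and says nothing of a condition. Of 51 members tested 15 passed an adjusted p of 0.05 (29.4%), 6 higher in library 2 and 9 higher in library 1, against 24.3% of all genes tested. The median size of the log2 ratio was 0.592 in members and 0.228 in all genes tested. The members' signed median was 0.03 and that of all genes -0.01, so neither library was higher throughout.

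The calls fell mainly on genes with copies. Of the 27 tested members with under 50% of windows to themselves 12 were called (44.4%), and of the 24 with 50% or more 3 were called (12.5%). In 8 of the 15 one library was at 0. The largest ratio was that of Hist2h2aa2, with 0 and 123 reads (adjusted p = 1.1e-35 by the exact binomial test), beside Hist2h2aa1 with 235 and 77.5 reads (adjusted p = 1.9e-16, same test). The test takes each estimated read as counted for 1 gene, which does not hold where reads were divided among copies. Neither of these copies has a window to itself, so their p-values do not measure the counting error of either. The credibility intervals of Hist2h2aa2, 0 to 14.2 and 0.601 to 27.1 TPM, overlap. When reads were summed over members that share 50% or more of the windows of the smaller one, a step added after seeing the data, the sum of these 2 copies did not pass the test (adjusted p = 0.397, exact binomial test). By the same step 5 of 26 sums were called, beside 24.3% of all 17246 genes and sums tested. They were the 11 H2A genes around Hist1h2ap, at 1903 and 1625 reads, the 9 H3 genes of Hist1, and the single genes Hist1h1c, Hist1h1d and Hist1h4i.

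**Figure D3:**
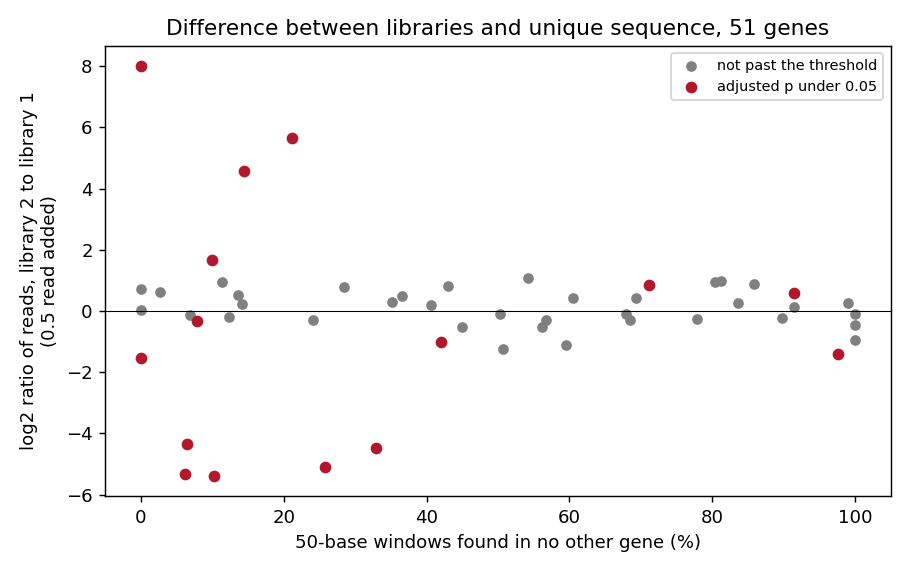
Log2 ratio of estimated reads in library 2 to library 1 (0.5 read added) for the 51 tested genes, against the percentage of their 50-base windows found in no other gene. Red points passed an adjusted p of 0.05: 12 of 27 genes under 50% and 3 of 24 at 50% or more.

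The 3 called genes with 50% or more of their windows to themselves were Hist1h1c, Hist1h4i and Hist1h1d. Hist1h1c had 75.3 and 109.8 reads, a log2 ratio of 0.59 (adjusted p = 0.0317, exact binomial test). Hist1h4i had 37.7 and 67.2 reads, a log2 ratio of 0.85 (adjusted p = 0.0197, exact binomial test). Hist1h1d had 55.2 and 20.2 reads, a log2 ratio of -1.39 (adjusted p = 0.00111, exact binomial test). Hist1h1c was not called with no filter on the summed count, and neither Hist1h1c nor Hist1h4i was called by the edgeR exact test. None of the 15 members tested in the whole-number table was called there. Of the members with every window to themselves and enough reads to test, none was called: Hist1h1b gave a log2 ratio of -0.11, Hist1h1a one of -0.47 and Hist2h2be one of -0.94.

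**Figure D4:**
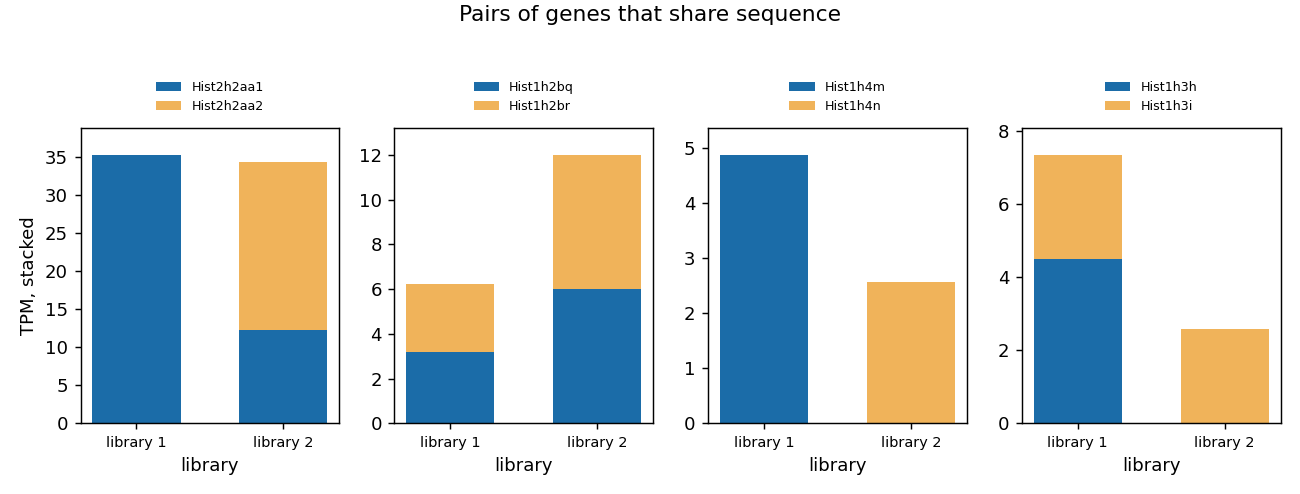
Stacked TPM in library 1 and library 2 of 4 pairs of clustered histone genes that share sequence, chosen after their values were seen. The sum of Hist2h2aa1 and Hist2h2aa2 is 35.3 and 34.3 TPM while the share of each copy differs, the sum of Hist1h2bq and Hist1h2br is 6.22 and 11.99 TPM, and Hist1h4m and Hist1h4n each appear in 1 library only.

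Level and annotated end were set side by side with no test. The 23 members so placed as ending within 100 bases past the stem-loop held 42.4% and 41.8% of the members' TPM, with a median of 1.81 TPM, and 9 were at 1 TPM or more in both libraries. The 23 that extend further held 19.6% and 19.4%, with a median of 0.945 TPM and 11 at 1 TPM or more. The 21 without the motif held 38.0% and 38.8%, with a median of 2.73 TPM and 13 at 1 TPM or more. Most of these 21 models, that of Hist1h2ah among them, were too short after the stop codon to hold the motif. TPM divides reads by annotated length, so a model that extends further gives a lower TPM for the same reads. These shares are therefore not shares of reads, and no order of the forms by signal can be read from them. Hist1h2ap, whose model ends at the stem-loop, was the highest member, and most of its windows also occur in other genes. The form of the RNA behind its reads, with or without a tail, cannot be told from these files.

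Replacement variants are histone genes outside the clusters, most of which are known to be made outside S phase from mRNAs with a poly(A) tail. They gave more TPM than the clustered genes for H3 and H2A and less for H1. For H3, the variants H3f3b and H3f3a, which encode the same protein, H3.3, stood at 1416 and 1530 TPM and at 557 and 529 TPM. Clustered genes made up 1.31% ± 0.172 (SD, n = 2) of the H3 total. For H2A, H2afz, which encodes H2A.Z, stood at 1379 and 1296 TPM, and clustered genes made up 18.1% ± 0.404 of the total with H2afx, H2afz, H2afv, H2afj and H2afy. For H1, H1f0 stood at 28.1 and 26.5 TPM and H1fx at 0 and 0.07 TPM, and clustered genes made up 58.5% ± 0.728. In estimated reads the H1 order was reversed. H1f0 had 700 and 623 reads in library 1 and library 2, and the clustered H1 genes together had 558 and 509. H2afx, the damage-response variant whose transcript also holds a stem-loop match, stood at 21.9 TPM in both libraries. Cenpa, the centromeric H3, stood at 59.9 and 59.1 TPM, and the germline genes H2al1a and H1fnt were at 0. Of the 14 genes listed, 9 were at 1 TPM or more in both libraries. Of 9 tested, 1 (H3f3b) was called higher in library 2 and 2 (H2afz and H3f3a) higher in library 1, with log2 ratios of 0.06, -0.13 and -0.16, beside 24.3% of all genes tested.

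**Figure D5:**
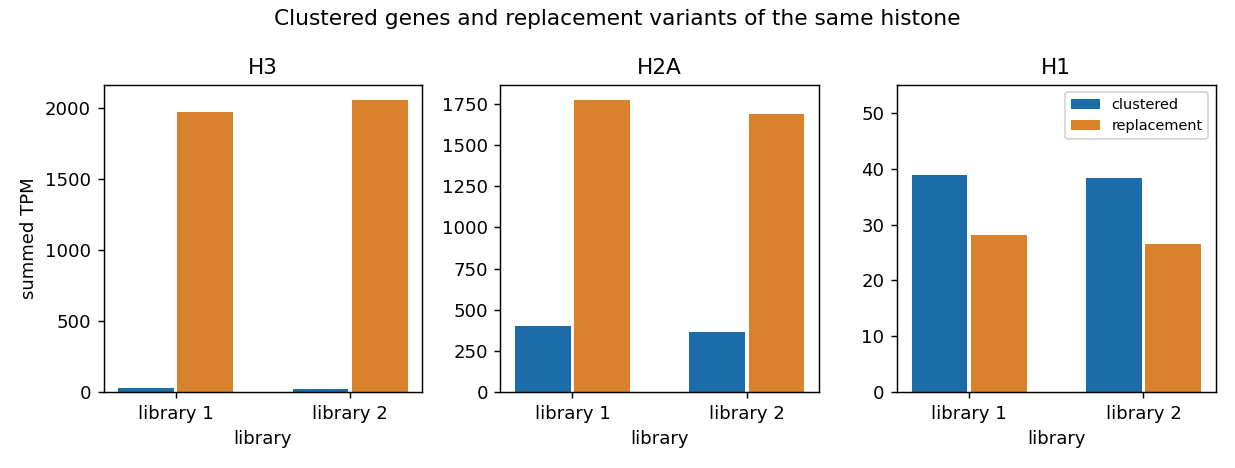
Summed TPM of clustered genes (blue) and of replacement variants (orange) of H3, H2A and H1 in each library. Axes start at 0 and differ between panels. Clustered genes make up 1.31% of the H3 sum, 18.1% of the H2A sum and 58.5% of the H1 sum. In estimated reads, not drawn here, H1f0 stands above the clustered H1 genes in both libraries.

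Most listed genes of the machinery that makes and handles histone mRNA and protein were detected, at levels that differed widely. Of 19 listed genes for processing and turnover of replication-dependent histone mRNA 16 were matched by symbol, and 14 of these were at 1 TPM or more in both libraries. Slbp stood highest at 142 and 120 TPM, then Cpsf3 at 93.0 and 90.05 TPM and Lsm10, a subunit of the U7 particle, at 50.9 and 71.2 TPM. The median of the matched genes was 23.3 TPM. Lsm11 was low at 1.18 and 1.49 TPM, and Zfp473 was under 1 TPM, at 0.45 and 0.08 TPM. Rnu7, the U7 RNA itself, was at 0 in both libraries. It is a short RNA without a poly(A) tail. Npat, the activator of clustered histone genes, stood at 9.85 and 9.47 TPM, and Eri1, an exonuclease that trims the stem-loop end, at 20.3 and 17.6 TPM. Of 15 tested, Lsm10 was called higher in library 2 and Slbp higher in library 1, beside 24.3% of all genes tested.

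Of 13 genes listed for histone chaperones and their partners, 12 were at 1 TPM or more in both libraries. Atrx stood highest at 217.9 and 218.2 TPM, then Nap1l1 at 119.9 and 115.6 TPM and Ssrp1, a subunit of FACT, at 102 and 120.5 TPM. The replication chaperone subunit Chaf1a was lowest at 0.78 and 1.12 TPM, and its partner Chaf1b stood at 21.3 and 23.9 TPM. Of 16 genes of S phase and division 15 were at 1 TPM or more in both libraries. Pcna, the sliding clamp of replication, stood at 139.9 and 137.8 TPM, Rrm2, a subunit of ribonucleotide reductase, at 102 and 108 TPM, and Tyms, thymidylate synthase, at 84.8 and 103 TPM. The lowest was E2f1 at 0.69 and 1.30 TPM. Of the 13 tested genes of the chaperone list, 3 were called higher in library 2 and 1 in library 1. Of the S phase genes the numbers were 5 of 16 and 1. Both stand beside the same 24.3%. The median of the S phase list was 47.0 TPM, beside 1.70 TPM for the clustered histone genes in the same libraries.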

How the data were processed

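Polyadenylated RNA was measured in 2 technical libraries of 1 sample, with fragments of 100 to 300 bases per the labels. Per the file headers the authors deposited, for each library, gene and transcript tables on mm10 with GENCODE M21 that give an expected count (an estimated count of reads that need not be whole), TPM, FPKM, posterior means with credibility bounds and, for transcripts, an isoform percent. The authors also deposited a table of a whole-number count per gene on GENCODE M4. Which tools made these tables, and how strand was handled, is not stated in the labels or headers. Rows that name no gene held 0.142% and 0.186% of estimated reads and entered neither library sizes nor tests.

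Symbols, gene types and 1-based coordinates came from the GENCODE M21 annotation, and sequences from its transcripts. Expressed means 1 TPM or more in both libraries. Reads span 50 bases (length minus effective length is 49), and a window of 50 bases was called unique if it lies in no other gene's transcripts on either strand. Expected counts were rounded for an exact binomial test at a summed count of 10 or more. A check on simulated data drew independent counts with counting error only and no reads shared between genes. That check therefore cannot speak for members with copies, or for spread between libraries beyond counting error. The binomial test was done with Python 3.11.15, pandas 2.3.3 and scipy 1.17.1. Library sizes by edgeR 4.0.16 and DESeq2 1.42.0 (R 4.3.3) and an edgeR exact test with a preset dispersion of 0.01 were alternatives, as were other units, filters and single libraries. edgeR's quasi-likelihood test could not be fitted without replicates in each of 2 groups. Limits set at 3 reads cover counting error only. The credibility intervals also reflect the ways of dividing shared reads. Neither covers the spread between animals.

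The members and gene lists were chosen with earlier results of these data known. Members at 1 TPM or more in both libraries were named singly, the others by counts and ranges with the testis forms named, and from each list at least the 3 highest and the lowest genes, except a gene that is not reported here.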

Additional observations from a re-analysis of the deposited data

How the results depend on the processing

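The depth is that of 1 sample, so nothing here speaks for other animals. Most members share sequence, and the values of single copies depend on how reads were divided. No paired analysis was possible because there is 1 group of 2 technical libraries.

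Beside the 33 members at 1 TPM or more in both libraries, 16 members had a lower credibility bound that high, and 9 of all members, Hist4h4 among them, had 10 counts or more in both libraries in the whole-number table. With 1 library the count was 39 to 40. Of 15 called members, 9 were called with posterior mean counts (beside 23.2% of all genes) and 0 with the whole-number table (15 tested, beside 1085 of 11008 genes called), and 5 sums of copies were called, a setting chosen after seeing the data. The edgeR exact test called 10 of 51 members, beside 2.8% of all genes. With no filter on the summed count 13 of 62 members were called, beside 12.4% of all genes. How far the members stood from the background thus depended on the test and filter.

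The shares of H1, H2A, H2B, H3 and H4 in the members' sum, 7.15%, 70.9%, 6.33%, 4.95% and 10.7%, moved as follows. On expected counts H1 was 14.98%, H2A 58.3%, H3 4.22% and H4 16.1%. In the whole-number table they were 47.1%, 19.1%, 3.56%, 1.19% and 29.1%. Over members with whole counts only they were 93.1%, 0%, 3.28%, 0% and 3.64%, and without Hist1h2ap, 10.1%, 58.9%, 8.92%, 6.98% and 15.1%. The Hist1 share, 87.0%, was 85.3% on expected counts, 88.3% in the whole-number table and 81.6% without Hist1h2ap. The sum of 539.9 TPM was 481.9 with posterior means, 437.4 in FPKM, 26.1 over members with whole counts and 382.8 without Hist1h2ap. With 1 library, H1 was 7.02 to 7.29%, H2A 69.6 to 72.2%, H2B 5.60 to 7.06%, H3 4.72 to 5.18%, H4 10.1 to 11.4%, Hist1 86.5 to 87.4%, the sum 526.0 to 553.8 TPM, and 46 to 54 members (58 with both) had counts that were not whole. That number was 56 at a tolerance of 0.1 read. The cause of these changes was not tested beyond the windows given above.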
